A study of Rattus norvegicus with 6 samples.

Results

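Interferon response genes and interferon regulatory factors (IRFs) were followed in rat bone marrow mesenchymal stem cells (the line SCSP-402, wild type). The cells shared their culture with BV2, a mouse microglial cell line, in both groups: 3 libraries came from co-culture without stimulation and 3 from co-culture with lipopolysaccharide (LPS), the outer membrane glycolipid of Gram-negative bacteria that is sensed by toll-like receptor 4. The series set out to learn how the stem cells restrain microglial activation. The labels name the stem cells as the sequenced cell type, and neither the LPS dose nor the time is given in the sources used here. Nothing in the labels says that replicates were separate cultures, so p-values cover only library-to-library spread, and that spread may be technical.

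The genes were chosen by symbol: 44 were listed, 42 had a row in the table of 19266 genes, and the other two were not analysed here. Of the 42, 29 were tested, having 1 FPKM or more (fragments scaled for transcript length and library size) in 3 or more libraries out of 6. The other 13 stayed below that filter. They were sorted by role into genes that depend strongly on type I interferon (19 in the table), genes with constitutive expression that interferon raises further (14), Irf1 and the guanylate-binding proteins, which also answer to interferon gamma or NF-kB (3), IRFs of blood cells (2) and receptor subunits (4).

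As background, type I interferons bind the receptor of Ifnar1 and Ifnar2, and interferon gamma binds that of Ifngr1 and Ifngr2. Janus kinases then activate STAT proteins. A complex that contains STAT2 and IRF9 binds the interferon-stimulated response element (ISRE) in promoters such as those of the Ifit genes, whereas signalling from interferon gamma acts through the gamma-activated site (GAS). Toll-like receptor 4 can start the loop through the adaptor TRIF and IRF3, which induces interferon beta, and in a separate arm it activates NF-kB.

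Depth was even, at 77.4 M to 82.0 M count units or 19.3 M to 20.5 M fragments per library. Untreated replicate 1 lay apart from its group on the first principal component (71.5% of the variance), at -11.3 against -36.1 and -38.0, with the LPS libraries at 25.4 to 30.1. Stromal markers were present (Thy1 at 237 to 284 FPKM, Col1a1 at 7494 to 9927 FPKM over the libraries). Of 19 microglial markers in the table, 14 had group means under 1 FPKM in both groups, and Ptprc, the pan-leukocyte antigen CD45, stood at 0.017 FPKM or less, with 0 in all 3 LPS libraries.

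Of the 19 genes that depend strongly on type I interferon, 11 stayed below the filter, among them Isg15, Rsad2 and Ifit3. Of the 8 tested ones, 3 (Bst2, Ifi27 and Irf7) were higher with LPS and 1 was lower. With a looser filter described below, 8 of the sparse ones entered the fit. There 4 were called higher and 0 lower, where 5.62% and 6.6% of 3543 genes below the FPKM filter were. Among these, Oas1a held 0 fragments in all 3 untreated libraries and entered the fit through its LPS values. The calls of Usp18, Rtp4 and Cmpk2 were each lost in some of the alternative settings described below. The receptors, Irf1, Irf2 and a layer of constitutively expressed antiviral genes were also higher with LPS. Of the 29 tested members, 18 rose and 2 fell (Irf3 and Isg20), at an adjusted p under 0.05 over all tested genes. Among all 11559 tested genes, 20.1% were called higher and 19.0% lower, 39.1% in all. All 3 LPS libraries lay above all 3 untreated ones in 22 of the 29 members and below them in 2, against 32.8% and 20.6% of all tested genes (53.3% either way). The rises were modest: they ran from 1.23-fold to 2.57-fold, and 2 of the 18 (Bst2 and Ifitm1) reached 2-fold. The tested members had a median of 0.41 in log2 fold change, against 0.00 over all tested genes.

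The filter can admit a gene through its LPS values. Bst2, Dtx3l, Gbp2, Irf7 and Xaf1 lay under 1 FPKM in at least 1 untreated library, and 4 of these 5 were called higher. Among the 24 members at 1 FPKM or more in all 3 untreated libraries, 14 rose, where 19.4% of 11063 such genes did. How the scaling treats all genes also matters: 51.3% of the calls over all genes were higher in the fit reported here, 62.7% with library totals alone and 63.3% with limma on the FPKM values, and with either of the latter 20 members rose and 2 fell. With quantile normalization 44.6% of all calls were higher, and 19 members rose and 2 fell.

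**Figure D1:**
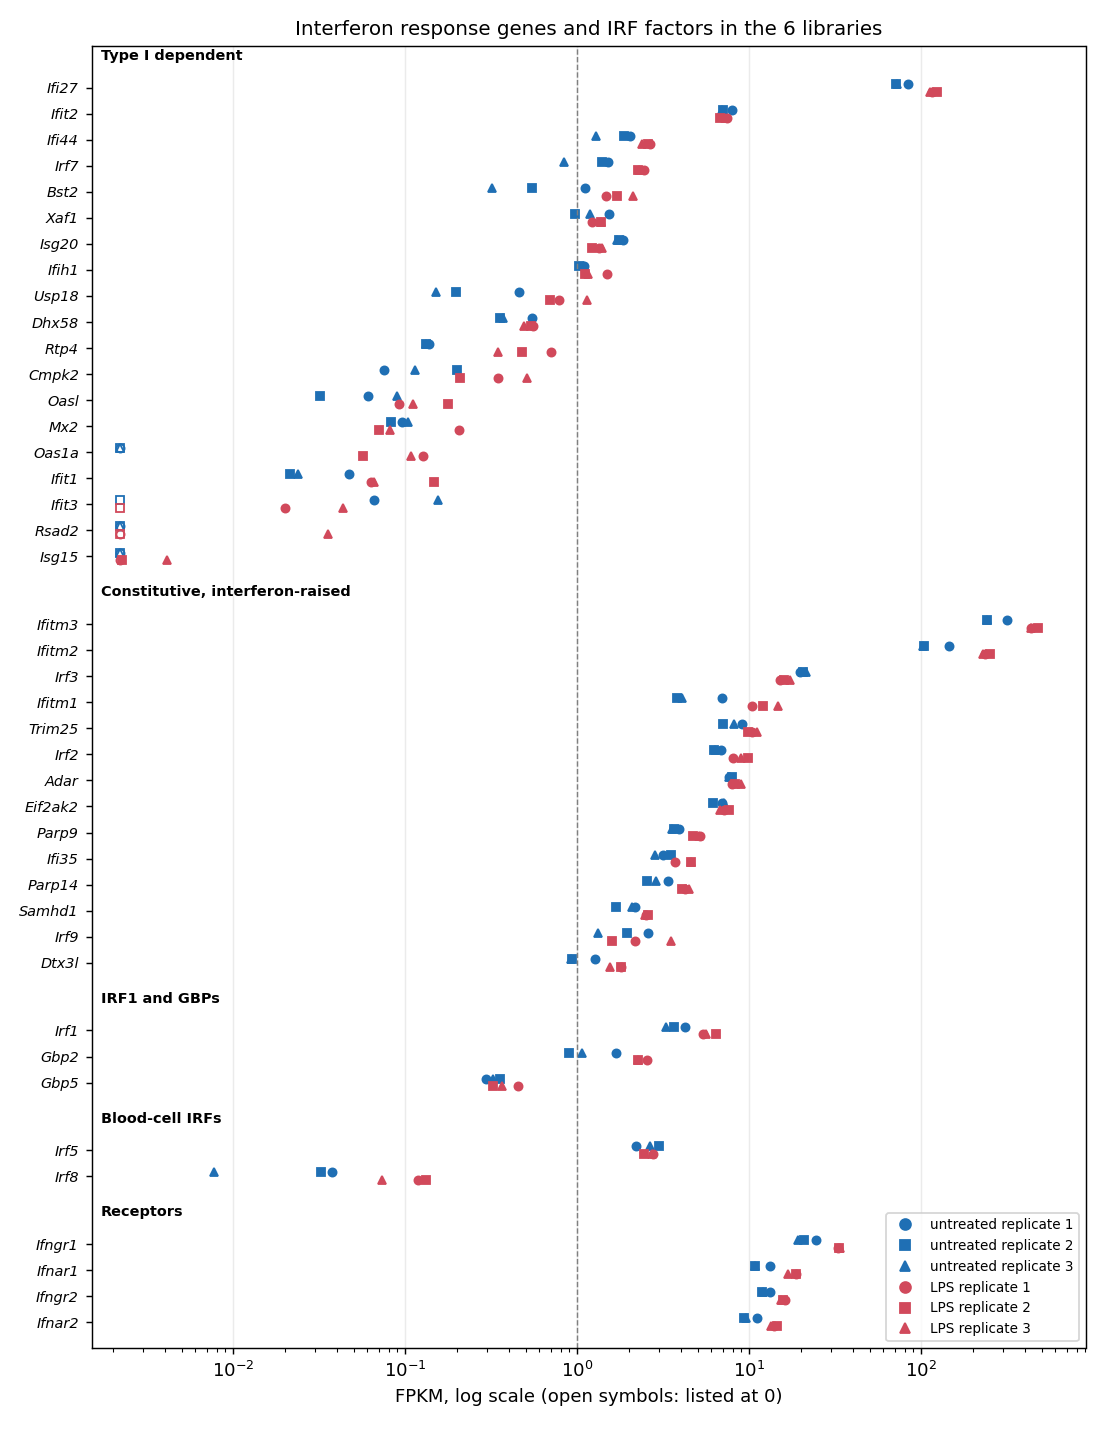
FPKM (log axis) of the 42 members in each library, grouped by role. Blue symbols are the 3 untreated and red the 3 LPS libraries, open symbols mark values listed at 0, and the dashed line is 1 FPKM. Ifitm3 stood highest, at 241 to 473 FPKM, and Isg15 lowest, at 0.00411 FPKM or less.

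Promoter sequence was compared first, because type I signalling acts on promoters through the ISRE. RefSeq promoter windows (build GRCr8, 250 bases before to 50 after the start) were at hand for 32 of the 42 members. As an ISRE core, GAAA followed after 2 bases by another GAAA was searched on both strands. It occurred in 17 of the 32 (53.1%) and in 3.92% of 33469 rat promoters. It occurred in 10 of 12 type I promoters, 5 of 11 constitutive ones, 2 of 3 in the Irf1 and Gbp group, and in none of the 4 receptor promoters. The 30-base windows below show these cores in capitals, 5′ to 3′ on the strand that carries them, with GRCr8 coordinates that cannot be compared with the mRatBN7.2 positions given for genes elsewhere in the text. The first 6 belong to genes that rose.
Ifitm3 (GRCr8 chr1:205541783-205541812, minus strand): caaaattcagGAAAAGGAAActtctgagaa
Ifitm2 (GRCr8 chr1:205482362-205482391, minus strand): ccaccaacagGAAAAGGAAActgctagaga
Ifi27 (GRCr8 chr6:128355218-128355247, plus strand): gagagctgggGAAATGGAAActtacctcat
Irf7 (GRCr8 chr1:205800073-205800102, plus strand): tgcgtctcggGAAAATGAAAcctaaactgt
Gbp2 (GRCr8 chr2:234005686-234005715, minus strand): ttaagacaatGAAAGTGAAActaaaaaact
Parp14 (GRCr8 chr11:78408048-78408077, plus strand): tccaggaaatGAAAGTGAAAgaagtaagtt

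The next 5 belong to genes that did not rise or were close to 0. Isg20 fell, Ifih1 and Xaf1 did not pass the test, and Ifit3 and Rsad2 were below the filter.
Isg20 (GRCr8 chr1:142239957-142239986, plus strand): taatgaaccaGAAACTGAAActaaaacggc
Ifih1 (GRCr8 chr3:67684008-67684037, minus strand): gaagagaatcGAAACAGAAAccgatgtgtg
Xaf1 (GRCr8 chr10:57415914-57415943, plus strand): tgtgtgcaaaGAAACAGAAActccaccgaa
Ifit3 (GRCr8 chr1:241527272-241527301, minus strand): gtggaaactaGAAACTGAAAcagacttaaa
Rsad2 (GRCr8 chr6:48788248-48788277, plus strand): tctgttttctGAAAATGAAAgttgaaccag

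Holding the core did not separate the members by their response. Of 13 tested members with it, 8 rose, 1 fell and 4 did not pass; of 12 tested members without it, 8 rose, 1 fell and 3 did not pass. The GAS letters TTCNNNGAA occurred in 9 of the 32 promoters and in 8.87% of all promoters, among them those of Irf1 and Irf9. For NF-kB, GGG followed after 2 bases by TTTCC occurred in 3 of the 32 (Gbp5, Irf3 and Ifngr2) and in 1.53% of all. Only these letters were searched. Other forms of the NF-kB site were not counted, so a promoter outside the 3, such as that of Irf1, may still hold one. In Oas1a and Bst2 pairs of ISRE cores overlapped each other, the cores in Oas1a starting 41 and 35 bases before the start. A match is a run of letters and not a measured binding site.

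The whole windows of Ifitm3, the most abundant member, and of Rsad2, which was nearly undetected, show an ISRE core in genes at opposite ends of the range of levels. Capitals again mark the core, here on the gene's own strand, so that it reads TTTCATTTTC in Rsad2.
Ifitm3 (GRCr8 chr1:205541709-205542008, minus strand): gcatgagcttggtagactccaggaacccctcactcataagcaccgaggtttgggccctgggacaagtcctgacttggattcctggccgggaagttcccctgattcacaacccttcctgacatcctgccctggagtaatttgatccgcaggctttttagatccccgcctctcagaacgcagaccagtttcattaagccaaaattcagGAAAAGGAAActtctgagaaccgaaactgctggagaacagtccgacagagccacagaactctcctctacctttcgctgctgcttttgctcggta
Rsad2 (GRCr8 chr6:48788071-48788370, minus strand): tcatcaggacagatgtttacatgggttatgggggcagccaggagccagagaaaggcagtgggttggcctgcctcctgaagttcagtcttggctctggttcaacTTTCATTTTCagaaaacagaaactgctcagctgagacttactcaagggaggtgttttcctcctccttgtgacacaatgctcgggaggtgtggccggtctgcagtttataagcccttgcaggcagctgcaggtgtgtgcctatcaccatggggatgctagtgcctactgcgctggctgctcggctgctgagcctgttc

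Of the ligands, the epithelial type I interferon Ifne was the member of an 11-gene ligand list with a row in the table, and the others were not analysed here. Ifne stood at 0.163, 0.0901 and 0.0872 FPKM in the untreated and 0.197, 0.429 and 0.189 FPKM in the LPS libraries. All 3 LPS values lay above the untreated ones, and with the looser filter described below it did not pass (adjusted p = 0.151).

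All 4 receptor subunits rose. Ifnar1, the low-affinity chain of the type I receptor, stood at 13.2, 10.8 and 10.8 FPKM in the untreated and at 18.6, 18.6 and 16.8 FPKM in the LPS libraries. The groups did not overlap, and within the untreated group replicate 1 was the highest. Ifnar1 was 1.5-fold higher with LPS (log2 fold change 0.59 ± 0.08 SE, adjusted p = 0.000947). Ifngr1, the ligand-binding chain for interferon gamma, stood at 24.3, 20.8 and 19.3 FPKM without and at 32.9, 33.3 and 33.9 FPKM with LPS. It was the most abundant of the 4 and was also 1.5-fold higher (log2 fold change 0.59 ± 0.08 SE, adjusted p = 0.000623).

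The partner chains rose less. Ifnar2, the high-affinity chain of the type I receptor, stood at 11.1, 9.30 and 9.62 FPKM in the untreated and 13.8, 14.5 and 13.3 FPKM in the LPS libraries. Ifngr2, the signalling chain of the gamma receptor, stood at 13.1, 11.9 and 12.1 FPKM and at 16.2, 15.8 and 15.4 FPKM. Again no LPS library reached down to an untreated one. Ifnar2 was 1.34-fold higher (log2 fold change 0.42 ± 0.07 SE, adjusted p = 0.00173) and Ifngr2 1.23-fold (0.30 ± 0.05 SE, adjusted p = 0.00283). Whether the chains differed from each other in their rise was not tested.

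Ifnar2, Ifnar1 and Ifngr2 are neighbours on the plus strand of chromosome 11 in mRatBN7.2, at 30613767 to 30668124, 30725790 to 30749979 and 30779733 to 30798005. The gap between Ifnar1 and Ifngr2 is 29.8 kb with no gene of the table inside it. Il10rb, annotated across 15979 bases of the Ifnar2 locus on the same strand, stood at 0.0135 FPKM or less in every library, and reads of overlapping genes could not be told apart. Ifngr1 lies elsewhere, on chromosome 1 (14333187 to 14351785). The calls of these 4 genes held in all 17 alternatives run for each.

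Of the 10 tested genes in a list of kinases, STAT factors and their inhibitors, 3 rose (Jak2, Ptpn2 and Cish) and 0 fell, where 20.1% of all tested genes rose and 19.0% fell. Jak2, which serves the gamma receptor together with Jak1, rose from 18.5 ± 4.29 to 34.6 ± 0.767 FPKM (SD, n = 3), or 1.81-fold (adjusted p = 0.00149), and 2.08-fold without untreated replicate 1. Jak1 and Tyk2, which serve the type I receptor, stood at 43.7 ± 1.57 and 42.3 ± 0.587 FPKM (adjusted p = 0.110) and at 6.2 ± 0.480 and 6.37 ± 0.378 FPKM (adjusted p = 0.927). Stat2 stood at 9.29 ± 0.224 and 9.63 ± 0.129 FPKM (adjusted p = 0.970) and Stat3 at 50.0 ± 1.76 and 48.3 ± 0.460 FPKM (adjusted p = 0.0928). The inhibitor genes Socs1 and Socs3 did not pass either. Socs1 stood at 3.56 ± 0.271 and 2.96 ± 0.516 FPKM (adjusted p = 0.158). Socs3 stood at 55.4, 29.5 and 27.6 FPKM without and at 60.0, 54.4 and 64.1 FPKM with LPS (adjusted p = 0.0652), untreated replicate 1 lying among the LPS libraries. Without that library Socs3 passed at 2.01-fold (adjusted p = 3.04e-07), and over 17 alternatives its adjusted p ran from 3.04e-07 to 0.179.

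**Figure D2:**
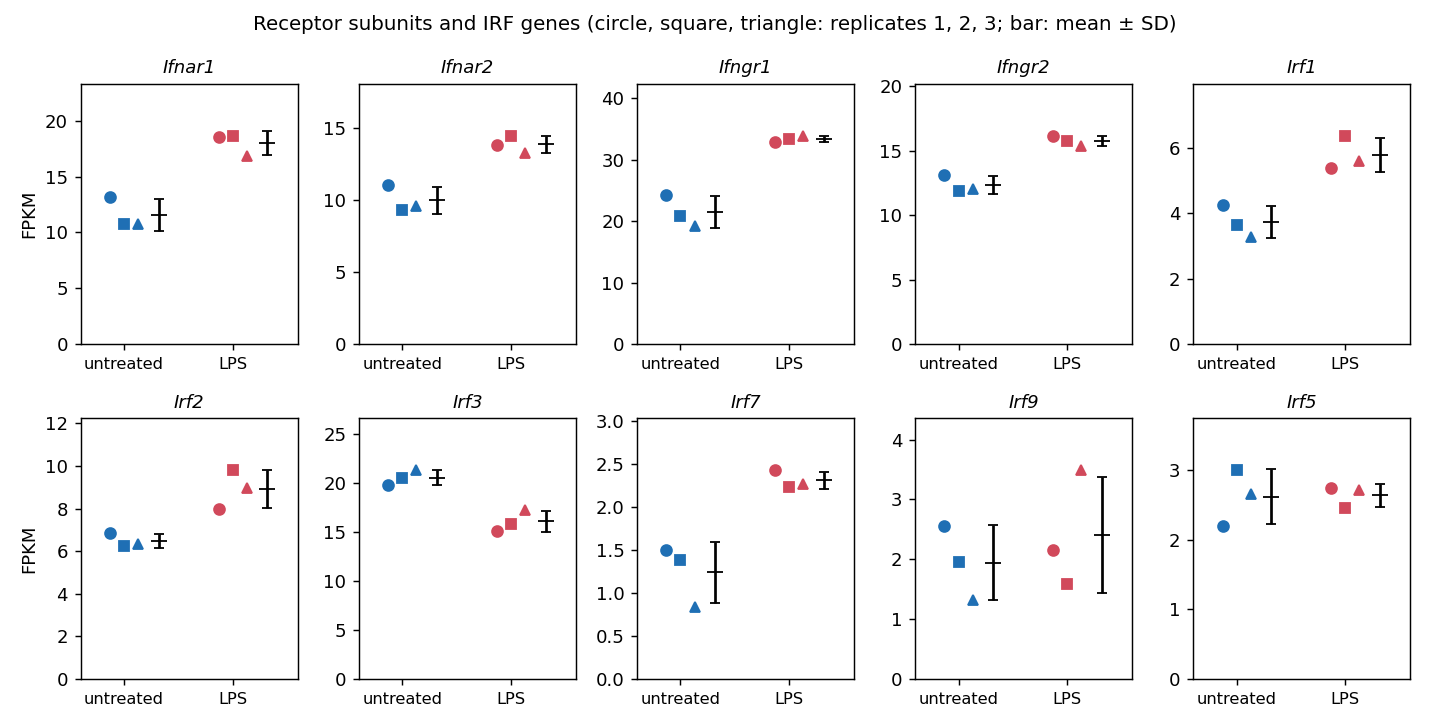
FPKM of the 4 receptor subunits and of 6 IRF genes in untreated (blue) and LPS (red) libraries, each on an axis starting at 0. Symbols are single libraries and black bars mean ± SD of 3 libraries. The receptors, Irf1, Irf2 and Irf7 lie higher and Irf3 lower with LPS without overlap, while Irf5 and Irf9 overlap.

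Among the IRFs, 3 of 6 tested genes rose, 1 fell and 2 did not pass. Irf1, a factor that interferon gamma and NF-kB induce, stood at 4.25, 3.63 and 3.28 FPKM in the untreated and 5.38, 6.36 and 5.58 FPKM in the LPS libraries. The groups were separate by more than 1 FPKM. It was 1.5-fold higher (log2 fold change 0.59 ± 0.11 SE, adjusted p = 0.00447). Irf2, which competes with IRF1 for the same DNA element, stood at 6.83, 6.24 and 6.34 FPKM and at 8.00, 9.79 and 8.98 FPKM. It was 1.33-fold higher (0.41 ± 0.09 SE, adjusted p = 0.00644), so both members of this opposed pair rose.

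Irf7, which amplifies interferon alpha production and is itself an interferon target, was low. It stood at 1.5, 1.39 and 0.834 FPKM in the untreated and 2.43, 2.24 and 2.28 FPKM in the LPS libraries. All 3 LPS values were higher, by 1.80-fold in the fit (log2 fold change 0.85 ± 0.22 SE, adjusted p = 0.0145). The call was lost without LPS replicate 1 (adjusted p = 0.0508; 0.000676 to 0.0508 over 16 alternatives).

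Irf3, the latent factor that toll-like receptor 4 uses to induce interferon beta, went the other way. It was the most abundant IRF, at 19.8, 20.5 and 21.3 FPKM in the untreated and 15.1, 15.8 and 17.3 FPKM in the LPS libraries. Every LPS library lay below every untreated one, as in 20.6% of all tested genes. Irf3 was 1.32-fold lower (log2 fold change -0.40 ± 0.06 SE, adjusted p = 0.00129), a call that held in all 17 alternatives. It overlaps Bcl2l12 on the opposite strand by 1171 bases, and Bcl2l12 stood at 5.98 ± 0.203 and 6.69 ± 0.434 FPKM (SD, n = 3; adjusted p = 0.361).

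Irf9, the DNA-binding subunit of the complex with STAT2, varied between libraries more than between groups, at 2.56, 1.95 and 1.32 FPKM without and 2.15, 1.58 and 3.48 FPKM with LPS (adjusted p = 0.556). Irf5, a factor best known from macrophages and B cells, stood at 2.2, 2.99 and 2.66 FPKM and at 2.75, 2.45 and 2.72 FPKM (adjusted p = 0.844). Both groups overlapped in both genes. In LPS co-culture the order of IRF levels was Irf3, Irf2, Irf1, then Irf5, Irf9 and Irf7, and last Irf8. Irf9 values overlapped those of both Irf5 and Irf7, which did not overlap each other.

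Irf8, a factor of myeloid cells, was sparse. Counts were divided by 4 to give fragments, since about 4 count units were taken as 1 fragment. That unit was inferred from an excess of multiples of 4 among low counts, and how the counts were derived is not given. Irf8 held 5, 4 and 1 fragments in the untreated libraries and 15.5, 17 and 9.75 in the LPS libraries. All 3 LPS libraries were higher, and the summed ratio was 4.16 with an exact 95% interval from 2.05 to 9.29 that covers counting error only. With a looser filter (filterByExpr of edgeR, minimum count 10, 15089 genes) it was called higher (adjusted p = 0.0381). The call did not survive the removal of untreated replicate 2 or 3 or of any LPS library, nor limma on the FPKM values with a pseudocount of 1, with or without quantile normalization (0.00827 to 0.115 over 15 alternatives).

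Microglial markers were summed beside it. The 19 microglial markers in the table summed to 94.3 to 102 FPKM in the untreated and 102 to 130 FPKM in the LPS libraries. All 3 LPS libraries lay above the untreated ones in 5 of the 19 (Cd14, Cd53, Itgam, Spi1 and Tmem119) and below them in 2 (Lyz2 and Ptprc). Among all tested genes these shares were 32.8% and 20.6%, though 14 of the 19 markers were below the filter. Of the 5 tested, Cd14 rose (1.29-fold, adjusted p = 0.0412) and Lyz2 fell (1.73-fold, adjusted p = 0.0462), where 20.1% of all tested genes rose and 19.0% fell. Among the sparse ones, Csf1r held 36 fragments over the untreated and 20 over the LPS libraries, Cx3cr1 6 and 1, and Tyrobp 7 and 3. Itgam stood at 0, 0.0197 and 0 FPKM without and 0.0511, 0.0802 and 0.0562 FPKM with LPS and did not pass with the looser filter (adjusted p = 0.0700). Spi1, the myeloid master regulator, stood at 0.167 FPKM or less in every library. The part of these cells in the Irf8 values was not tested, and in bulk RNA fewer cells of a type and less RNA per cell cannot be told apart.

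The type I group divided into a near-silent core and a few expressed genes. Of its 19 genes in the table, 11 were below the filter. Isg15, a ubiquitin-like modifier that interferon induces strongly, was listed at 0 in all 3 untreated libraries and in LPS replicate 1, and held 0.25 fragments in each of the other LPS libraries. Rsad2 (viperin, an antiviral radical enzyme) held 0 fragments in 5 libraries and 2 in LPS replicate 3. At this depth no difference was detectable in either gene. Isg15 lies inside Agrn on the same strand, a gene at 3.82 ± 0.310 and 3.29 ± 0.249 FPKM (SD, n = 3; adjusted p = 0.0276), so its few counts are uncertain.

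The Ifit genes, whose proteins bind viral RNA, differed sharply among themselves. Ifit3 held 3, 0 and 7 fragments in the untreated and 1, 0 and 2 in the LPS libraries. Its ratio was 0.297, and the exact 95% interval of 0.0525 to 1.15 includes no change. Ifit1 held 5.75, 2.5 and 3 fragments and then 7.75, 18 and 8.25, and did not pass with the looser filter (adjusted p = 0.0746), except without untreated replicate 1 (0.0496 to 0.270 over 15 alternatives). Ifit1 shares 27266 bases of its locus with Ifit1bl on the opposite strand. Ifit2, by contrast, was expressed at 7.96, 7.00 and 6.92 FPKM in untreated and 7.44, 6.72 and 7.21 FPKM in LPS co-culture, with overlapping groups (adjusted p = 0.431).

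These Ifit genes are close neighbours on the plus strand of chromosome 1 in mRatBN7.2. Ifit2 (232102570 to 232108635) is followed 5.53 kb on by Ifit3 (232114166 to 232119307) and 7.86 kb further by Ifit1 (232127170 to 232154435). Within this short stretch one gene was expressed at a steady level and the other two were near 0.

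Some sparse members were higher with LPS. Usp18, which cleaves ISG15 from proteins and dampens the type I receptor, held 18, 7.5 and 6 fragments in the untreated and 30.25, 27 and 45.5 in the LPS libraries. The groups did not overlap, and LPS libraries held 3.19 times as many per unit of depth (exact 95% interval 2.12 to 4.90). With the looser filter it was called higher (adjusted p = 0.0225), a call lost without untreated replicate 2 or 3 or LPS replicate 1 or 3 (0.00126 to 0.0858 over 15 alternatives). The fitted fold was 3.12 and rose to 1.52 times that without untreated replicate 1.

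Oas1a, a sensor of double-stranded RNA that activates RNase L, held 0 fragments in all 3 untreated libraries and 7.75, 3.5 and 7 in the LPS libraries. Taking 3 fragments over the untreated group as the floor, it was at least 5.94-fold higher with LPS, while the exact 95% interval of the ratio, which uses no floor, starts lower, at 4.35. Oas1a was called higher with the looser filter (adjusted p = 0.0048; 3.79e-05 to 0.0440 over 15 alternatives). Oas1a belongs to a family of near-identical copies that could share reads. Its relative Oasl held 2.75, 1.5 and 4 fragments and then 4, 7.75 and 5, and did not pass (adjusted p = 0.269).

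Cmpk2, a mitochondrial nucleotide kinase, held 6.25, 15.25 and 9.25 fragments without and 27.5, 16.75 and 41.5 with LPS. The groups were separate, but the call (adjusted p = 0.0492 with the looser filter) was lost in 8 of 15 alternatives, among them leaving out untreated replicate 1 or 3 or LPS replicate 1 or 3, with a range of 0.0136 to 0.179. Cmpk2 lies 14.1 kb from Rsad2 on chromosome 6, in the opposite orientation and with no gene of the table between them.

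Rtp4, a chaperone for G-protein-coupled receptors that interferon induces, held 4, 3.75 and 3.75 fragments without and 19.75, 13.25 and 10 with LPS. It was called higher with the looser filter (adjusted p = 0.0176), but not without LPS replicate 1 (0.00392 to 0.0736 over 15 alternatives). Rtp4 overlaps Masp1 on the opposite strand by 579 bases. Masp1, a complement protease, rose from 3.28 ± 1.13 to 11.1 ± 0.501 FPKM (SD, n = 3), and since strand use in the counting is not known, the part of Masp1 reads in the Rtp4 values was not tested.

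The remaining sparse members did not pass with the looser filter. The GTPase gene Mx2 held 5, 4 and 5.25 fragments without and 10.25, 3.5 and 4.25 with LPS (adjusted p = 0.762), LPS replicate 1 alone standing out. The RNA sensor Dhx58 held 28.5, 17.75 and 19.25 fragments and then 28.5, 27.75 and 26 (adjusted p = 0.506). Gbp5 held 18.25, 20.75 and 19.75 fragments and then 27.75, 19.75 and 22.75 (adjusted p = 0.651). Over the 13 members below the filter, 7 had all LPS libraries above all untreated ones. The share among all genes below the filter was not counted, so the 7 cannot be set against it. It was 32.8% among the tested genes. Of the 10 sparse members that entered the looser fit, 5 (Oas1a, Usp18, Rtp4, Cmpk2 and Irf8) were called higher and 0 lower, where 5.62% and 6.6% of 3543 genes below the FPKM filter were. The looser filter, too, can admit a gene through its LPS values. Oas1a held 0 fragments in all 3 untreated libraries and Irf8 held 1 in untreated replicate 3, so both entered with the help of LPS libraries. The share called among genes admitted by their untreated values was not counted for this filter.

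**Figure D3:**
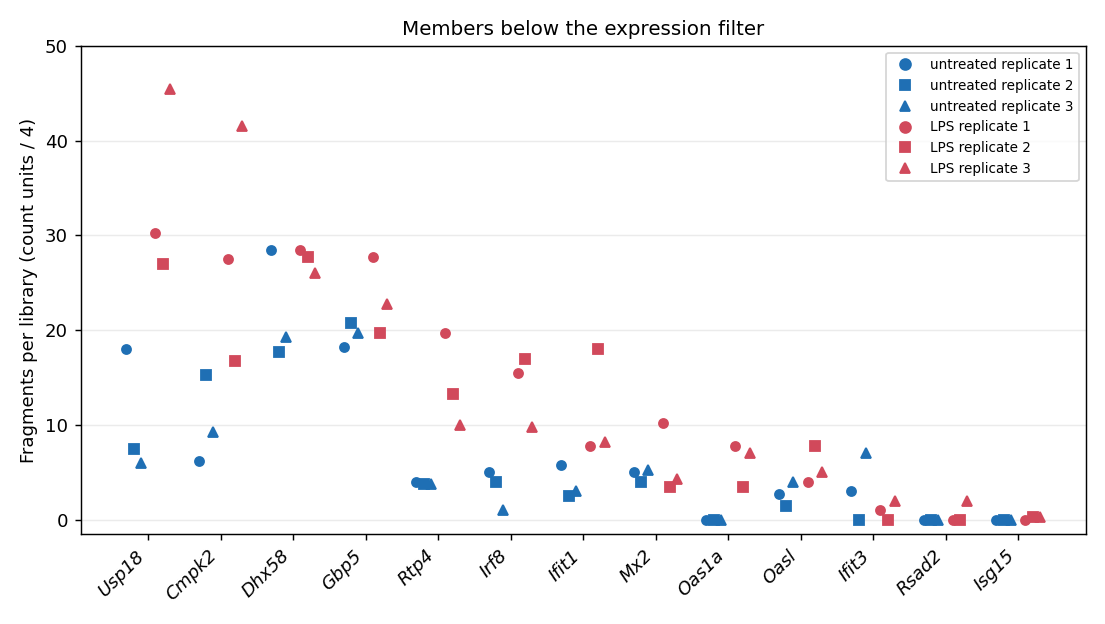
Fragments per library (count units divided by 4) of the 13 members below the FPKM filter, in order of their LPS sum. Blue symbols are untreated and red LPS libraries. Usp18 reached 45.5 fragments in LPS replicate 3, while Rsad2 and Isg15 held at most 2 in any library.

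Of the 8 tested type I genes, 3 rose, 1 fell and 4 did not pass, and their median was 0.34 in log2 fold change. Ifi27, a small mitochondrial membrane protein, was by far the most abundant, at 84.0, 71.0 and 72.0 FPKM in the untreated and 115, 123 and 112 FPKM in the LPS libraries. The groups were well separate, and Ifi27 was 1.49-fold higher (log2 fold change 0.58 ± 0.07 SE, adjusted p = 0.000471). Bst2 (tetherin, which holds budding virus on the cell surface) stood at 1.11, 0.542 and 0.319 FPKM and at 1.47, 1.69 and 2.11 FPKM. Its 2.57-fold rise was the largest among the 18 tested members that rose, leaving aside those called with the looser filter alone (log2 fold change 1.36 ± 0.40 SE, adjusted p = 0.0258).

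The size of the Bst2 rise depended on untreated replicate 1, without which it was 3.91-fold (adjusted p = 0.000478). The call was lost without untreated replicate 2 or 3 or LPS replicate 2 or 3, and with no filter (0.000478 to 0.0836 over 16 alternatives).

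Isg20, an exonuclease that degrades single-stranded RNA, was the member of this group that fell, from 1.85, 1.74 and 1.70 FPKM to 1.34, 1.21 and 1.38 FPKM. All LPS values lay below all untreated ones, and the gene was 1.39-fold lower (log2 fold change -0.48 ± 0.13 SE, adjusted p = 0.0172). The call was lost without LPS replicate 2 (0.00526 to 0.0563 over 16 alternatives). Isg20 shares 9382 bases with Aen on the same strand, which fell from 12.2 ± 0.644 to 10.6 ± 1.02 FPKM (SD, n = 3; adjusted p = 0.0330), and reads of the pair could be shared.

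Ifi44 had separate groups, at 2.03, 1.86 and 1.28 FPKM and 2.63, 2.57 and 2.37 FPKM, but did not pass (adjusted p = 0.0608). It passed in 6 of 16 alternatives, among them leaving out untreated replicate 1 (0.0223 to 0.15 over all). The RNA sensor Ifih1 (MDA5) stood at 1.10, 1.02 and 1.09 FPKM and 1.48, 1.11 and 1.15 FPKM (adjusted p = 0.368), and the apoptosis factor Xaf1 at 1.22 ± 0.285 and 1.32 ± 0.0856 FPKM (SD, n = 3; adjusted p = 0.827).

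The constitutive group, which holds antiviral genes and the factor genes Irf2, Irf3 and Irf9, gave 9 of the 18 rises. Of its 14 genes, 9 rose (Irf2 among them), 1 fell (Irf3, described above) and 4 did not pass. Their median was 0.38 in log2 fold change. The interferon-induced transmembrane proteins, which block virus entry at membranes, led them. Ifitm3 stood at 315, 241 and 241 FPKM in the untreated and 436, 473 and 436 FPKM in the LPS libraries. Ifitm2 stood at 144, 103 and 102 FPKM and at 235, 252 and 228 FPKM. Ifitm1 was far lower, at 6.95, 3.79 and 4.04 FPKM and at 10.3, 12 and 14.7 FPKM.

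In all 3 Ifitm genes the LPS libraries lay above the untreated ones, and untreated replicate 1 was the highest of its group. Ifitm1 was 2.42-fold higher (log2 fold change 1.27 ± 0.24 SE, adjusted p = 0.0038), Ifitm2 1.98-fold (0.99 ± 0.12 SE, adjusted p = 0.000507) and Ifitm3 1.63-fold (0.71 ± 0.10 SE, adjusted p = 0.000862). Their order by fold was thus the reverse of their order by level, though no test of that order was run. The 3 genes lie within one stretch of chromosome 1 in mRatBN7.2, from Ifitm2 (196051537 to 196052741) through Ifitm1 to Ifitm3 (196111043 to 196112203), with no other gene of the table between them. As close relatives they could share reads. The calls held in all 17 alternatives for each.

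A second neighbourhood rose together on chromosome 11. Parp9 and Dtx3l, whose proteins form a complex that adds ADP-ribose and ubiquitin to targets at damaged or viral DNA, are transcribed away from each other and overlap by 530 bases. Parp9 stood at 3.90, 3.65 and 3.56 FPKM without and 5.14, 4.70 and 5.07 FPKM with LPS. Dtx3l stood at 1.26, 0.925 and 0.921 FPKM and at 1.79, 1.78 and 1.56 FPKM. The groups were separate in both, and the rises were 1.30-fold (log2 fold change 0.38 ± 0.08 SE, adjusted p = 0.00563) and 1.59-fold (0.67 ± 0.14 SE, adjusted p = 0.00597). Parp14, a mono-ADP-ribosyltransferase whose gene lies 78.2 kb beyond Dtx3l, stood at 3.38, 2.54 and 2.85 FPKM and at 4.20, 4.07 and 4.45 FPKM, a 1.40-fold rise (0.49 ± 0.10 SE, adjusted p = 0.00491).

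Smaller rises were found for Trim25 and Ifi35. Trim25, the ubiquitin ligase that activates the RNA sensor RIG-I, stood at 9.08, 7.06 and 8.16 FPKM and at 10.4, 9.81 and 11.1 FPKM, 1.24-fold higher (log2 fold change 0.31 ± 0.10 SE, adjusted p = 0.0337). Ifi35 stood at 3.13, 3.49 and 2.83 FPKM and at 3.71, 4.55 and 4.58 FPKM, 1.31-fold higher (0.39 ± 0.13 SE, adjusted p = 0.0397). These were the least stable calls of the group. Trim25 was lost without untreated replicate 2 or 3 or LPS replicate 1 or 3 (0.00506 to 0.111 over 17 alternatives). Ifi35 was lost without untreated replicate 1 or 3 or LPS replicate 2 or 3, with no filter and with the replicate number as a block (adjusted p = 0.0585; 0.0171 to 0.122 over 16 alternatives), and it overlaps the more abundant Vat1 (134 ± 3.57 and 130 ± 5.57 FPKM) by 408 bases.

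Eif2ak2 (PKR, the kinase that halts translation on double-stranded RNA) stood at 6.76 ± 0.510 and 7.17 ± 0.441 FPKM (SD, n = 3; adjusted p = 0.732). Adar, which edits adenosine in double-stranded RNA, stood at 7.73 ± 0.128 and 8.34 ± 0.500 FPKM (adjusted p = 0.395). Samhd1, which depletes the nucleotides that viruses need, stood at 1.97 ± 0.255 and 2.52 ± 0.0560 FPKM (adjusted p = 0.0796). Samhd1 passed in 4 of 16 alternatives, among them without untreated replicate 1 (0.0455 to 0.224 over all).

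Gbp2, a guanylate-binding protein that attacks intracellular pathogens, rose as Irf1 did. It stood at 1.68, 0.893 and 1.06 FPKM in the untreated and 2.55, 2.25 and 2.26 FPKM in the LPS libraries. The groups were separate, and Gbp2 was 1.88-fold higher (log2 fold change 0.91 ± 0.22 SE, adjusted p = 0.0127). Gbp5, 75.2 kb away on the same strand of chromosome 2 with Gbp4 and Gbp7 between, stood below the filter at 0.323 ± 0.0285 and 0.380 ± 0.0663 FPKM (SD, n = 3). Reads could be shared among the Gbp copies.

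**Figure D4:**
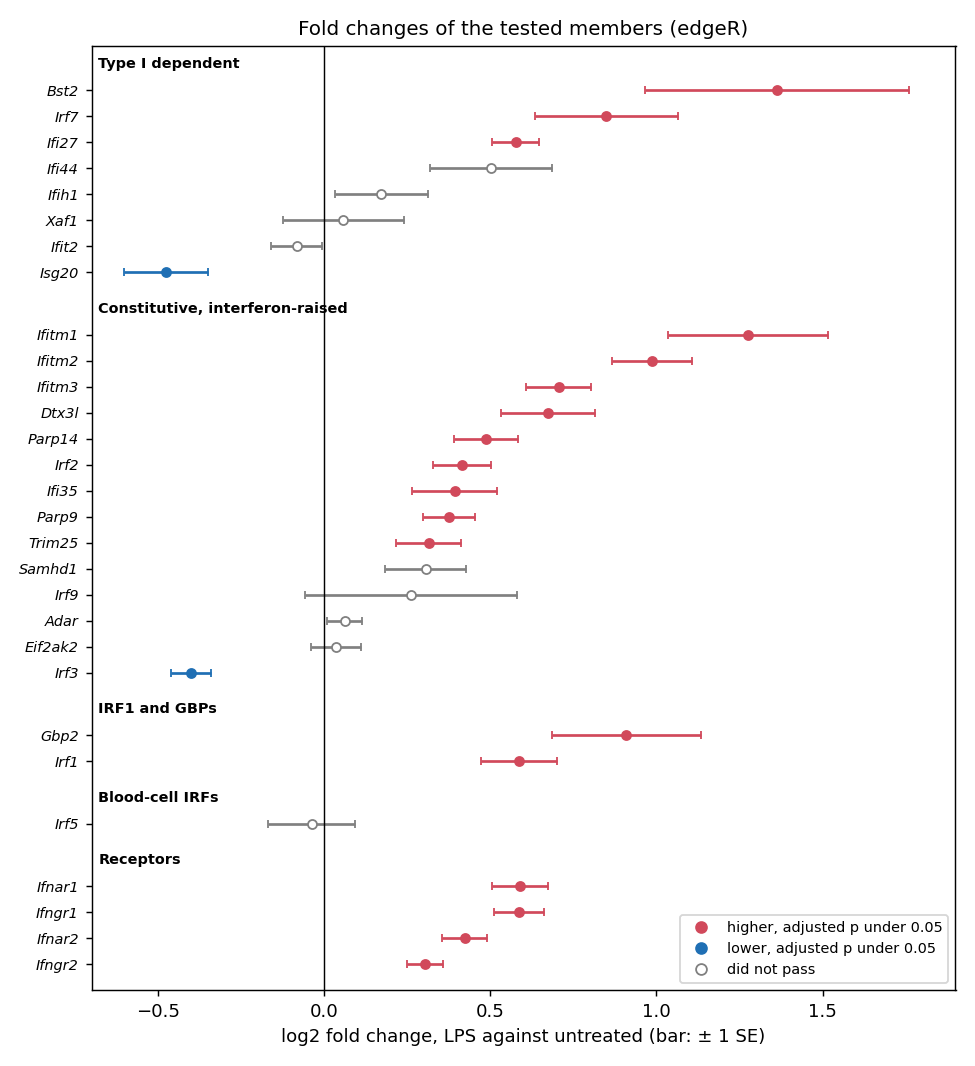
log2 fold change (LPS against untreated, edgeR) of the 29 tested members with 1 SE, grouped by role. Red points rose, blue points fell and open grey points did not pass. The 4 receptor subunits lie between 0.30 and 0.59, Bst2 is highest at 1.36, and Isg20 (-0.48) and Irf3 (-0.40) lie below 0.

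Genes of the same response were also listed outside the members. Of 28 tested genes in a list of other interferon-induced genes (42 in the table), 16 rose and 1 fell (Parp12), against 20.1% and 19.0% of all tested genes. The largest called changes were in the carbohydrate-binding protein Lgals9 (0.605 ± 0.709 to 2.98 ± 0.298 FPKM), the immunoproteasome subunit Psmb9 (1.04 ± 0.421 to 3.49 ± 0.416 FPKM), the ISG15-conjugating enzyme Ube2l6 (4.36 ± 2.12 to 12.8 ± 1.33 FPKM) and Parp10 (1.57 ± 0.331 to 3.23 ± 0.465 FPKM). Ube2l6 rose 2.83-fold (adjusted p = 0.00376). Lgals9 rose 4.74-fold (adjusted p = 0.0251) and 14.2-fold without untreated replicate 1. Its call was lost without untreated replicate 2 or 3 or any 1 LPS library (2.2e-07 to 0.0717 over 16 alternatives). A further 14 genes of this list were below the FPKM filter, and 8 of them entered the looser fit. There 1 was called higher and 0 lower, where 5.62% and 6.6% of 3543 genes below the filter were. Of 8 tested genes in a list of sensors and adaptors that induce interferon, 0 fell and 3 rose, where 20.1% of all tested genes rose: Ikbke (7.88 ± 0.882 to 12.6 ± 0.701 FPKM), Traf3 (5.48 ± 0.430 to 8.44 ± 0.359 FPKM) and Tlr3 (1.46 ± 0.126 to 1.94 ± 0.0571 FPKM). The Tlr3 call (adjusted p = 0.0280) was lost with the replicate number as a block (0.0551) and without any 1 library but untreated replicate 3 (0.0121 to 0.0845 over 16 alternatives).

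Untreated replicate 1 lay towards the LPS libraries in most members. In FPKM it stood between the mean of the other untreated libraries and the LPS mean in 18 of the 20 called members, at a median of 33.0% of the way, where the median over all called genes was 19.4%. The exceptions were Ifi35 (-2.28%) and Isg20 (-32.1%). In 17 of the 18 members that rose it was the highest untreated library. Without it, 19 members rose and 2 fell, the median log2 fold change was 0.50, and 1 called fold (Bst2) moved by over 1.5 times.

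**Figure D5:**
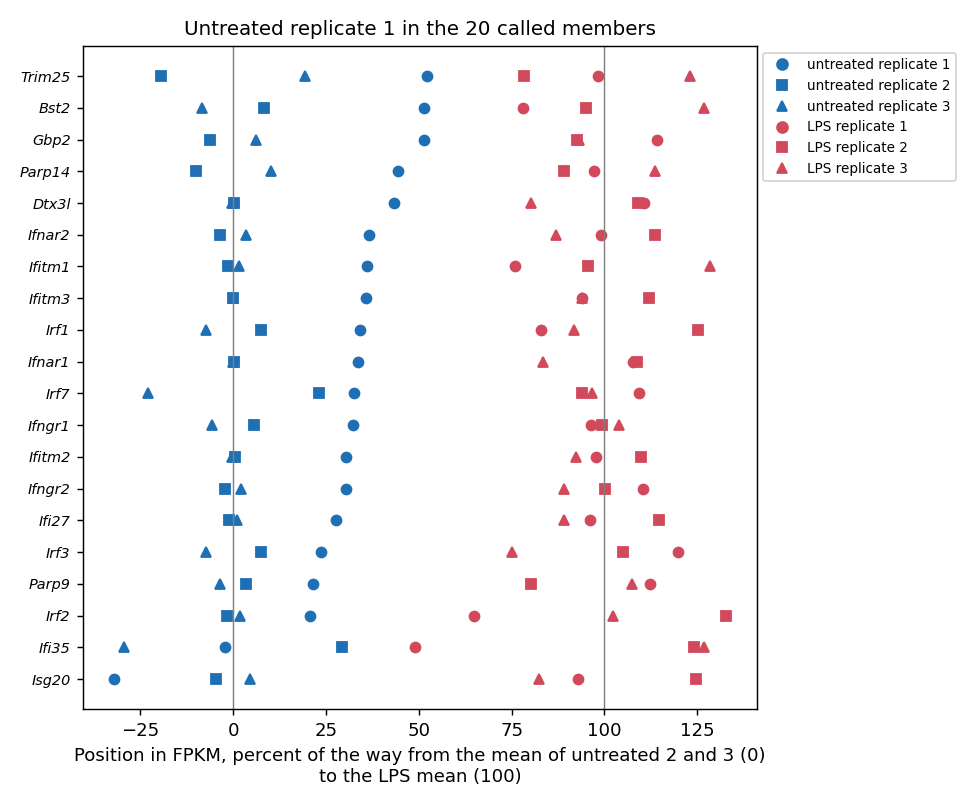
Position of each library in the 20 called members, with the mean of untreated replicates 2 and 3 set to 0% and the LPS mean to 100%. Blue symbols are untreated and red LPS libraries. Untreated replicate 1 (blue circles) lies from -32.1% in Isg20 to 52.2% in Trim25.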

How the data were processed

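Poly(A) RNA of 6 libraries was sequenced as strand-marked pairs, per the labels' protocols. The submitters' processing notes list mRatBN7.2 as the build and name HISAT2 2.2.1, StringTie 2.1.6, cutadapt 1.9, edgeR and DESeq2. The annotation release and the counting's strand setting are not given. The authors deposited FPKM values and estimated counts per gene, the counts having unequal library totals and no sign of normalization. Counts from 1 to 40 were multiples of 4 in 31.9% to 32.9% of cases (25% by chance), so about 4 units were taken as 1 fragment.

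edgeR 4.0.16 (R 4.3.3; rounded counts, TMM, quasi-likelihood test, group as the only term) gave all adjusted p-values (Benjamini-Hochberg over 11559 genes) unless another tool is named. Each SE was taken from the F statistic (log2 fold change over its root). The test was also run on simulated counts, which gave every gene the same dispersion and set no library apart as untreated replicate 1 was. Alternatives used DESeq2 1.42.0, limma 3.58.1 with trend, other scalings and filters, single libraries left out and a replicate block. An exact permutation test of 3 against 3 libraries cannot go below p = 0.1. Sequences are RefSeq's (GRCr8).

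Members, roles and lists were chosen with earlier results of these data known. Every member is accounted for. Outside them the naming rule takes interferon, JAK, STAT and SOCS genes, and up to 4 called genes with the largest change per other list. Genes set beside a result were chosen after their values were seen. Intervals and floors cover counting error only.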

Additional observations from a re-analysis of the deposited data

How the results depend on the processing

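Of the 20 called members, 15 kept their call in every alternative run, 5 lost it in at least 1 (Bst2, Isg20, Irf7, Ifi35 and Trim25), and none changed sign. Against 18 rises and 2 falls, leaving out single libraries gave 15 to 19 rises, 1 to 2 falls (1 without LPS replicate 2) and 3405 to 5054 called genes over the whole table. Among the 15 members with at least 5 FPKM in 3 libraries, 11 rose and 1 fell, fewer members being tested. With filterByExpr 23 rose and 2 fell among 39 tested, and with DESeq2 19 rose and 2 fell. Same-numbered libraries were not taken as pairs: their deviations from the group means correlated by 0.0362, 0.0836 and 0.0938, although each library correlated best with its own number. With the replicate number as a block, 17 members rose, 2 fell and 4184 genes were called. Quantile normalization called Jak1 (adjusted p = 0.0400) and Stat3 (0.0168), both lower. Signs turned in uncalled genes alone (log2 fold changes). With library totals alone and with limma on FPKM with a pseudocount of 1 and 0.1, Irf5 was at 0.017, 0.013 and 0.020, and Tyk2 at 0.044, 0.035 and 0.040. Stat2 was at -0.018 with quantile normalization and -0.0046 with the 5 FPKM filter. When single libraries were left out, Irf5 ran from -0.15 to 0.075, Tyk2 from -0.066 to 0.037, Stat2 from -0.017 to 0.027, Xaf1 from -0.083 to 0.24, Eif2ak2 from -0.019 to 0.087, Irf9 from -0.10 to 0.51 and Mx2 from -0.37 to 0.55. The cause was not tested. Depth limits the 6 members below the filter with under 20 fragments in both groups.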
